A study of Mus musculus with 21 samples.

Results

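Car9, Car8 and Hilpda, a pair of carbonic anhydrase genes and a gene of lipid storage under low oxygen, were followed in cells of mouse subcutaneous fat from the day of isolation to the end of a passage. They were chosen by symbol, as 3 of the 30961 gene models in the deposited table, with earlier results of these data known. All libraries came from the stromal vascular fraction, the mixed cells left when digested fat is freed of its adipocytes, of inguinal fat of female C57BL/6J mice aged 8 to 12 weeks. No genetic change and no drug was part of the design, and all cultures had 1 growth medium with 10% fetal bovine serum, under 5% carbon dioxide. The labels give no lowered oxygen for any group. Cells passaged once after day 28 and grown for 28 more days (P1 day 28) and primary cultures (P0) on days 28, 21, 14, 7 and 3 are set against P0 day 0 or against the group before them in time. Each of the 7 groups had 3 RNA-seq libraries. No label tells whether a replicate number marks a mouse, a pool or a culture dish. The p-values thus rest on the spread between libraries alone, which may be technical. Passage and the added time in culture cannot be told apart in the P1 group.

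When oxygen is low, the hypoxia-inducible factors (HIF) are no longer marked for breakdown, enter the nucleus and switch on genes for glycolysis, blood vessel growth and the handling of acid and fat. Carbonic anhydrases convert carbon dioxide and water to bicarbonate and a proton. Car9 encodes a carbonic anhydrase of the cell surface that is one of the classic HIF targets and is scarce in most normal tissue. Car8 encodes a relative that lacks a zinc-binding residue and has no carbonic anhydrase activity. It is known for binding the inositol trisphosphate receptor in the Purkinje cells of the cerebellum. Hilpda, the hypoxia-inducible lipid droplet-associated gene, is another HIF target. Its protein sits on lipid droplets and inhibits adipose triglyceride lipase, so that cells keep more fat.

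The promoters of the HIF targets among the 3 genes are shown because ACGTG, a form of the core of the hypoxia response element, was searched for in them. Other forms of the core were not searched for. The sequences are RefSeq windows on GRCm38.p6, from 250 bases before to 50 bases after an annotated start, and capitals mark the motif. The Car9 window is chr4:43506776-43507075 on the plus strand and the second Hilpda window is chr6:29272376-29272675 on the plus strand.
Car9: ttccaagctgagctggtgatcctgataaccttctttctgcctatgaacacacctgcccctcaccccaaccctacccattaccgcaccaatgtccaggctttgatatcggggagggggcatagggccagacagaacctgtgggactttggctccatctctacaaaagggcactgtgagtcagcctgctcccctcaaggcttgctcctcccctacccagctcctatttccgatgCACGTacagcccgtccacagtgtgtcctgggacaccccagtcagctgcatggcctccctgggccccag
Hilpda: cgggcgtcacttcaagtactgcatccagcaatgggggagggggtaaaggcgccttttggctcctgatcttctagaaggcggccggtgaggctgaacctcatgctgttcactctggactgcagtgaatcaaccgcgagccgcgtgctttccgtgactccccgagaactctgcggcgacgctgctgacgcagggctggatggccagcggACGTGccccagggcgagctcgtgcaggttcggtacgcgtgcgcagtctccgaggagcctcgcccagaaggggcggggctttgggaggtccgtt
In the Car9 window the word read CACGT, the motif on the opposite strand, with its first base at position -18 from the start. In the Hilpda window it read ACGTG with its first base at position -43. Neither match was part of the E-box CACGTG, which holds the same letters. The first Hilpda window (chr6:29272238-29272537) held no match to ACGTG on either strand. Of 32851 windows of this length, 19.6% held the motif on either strand, so a match in a single window is common. A match is not a bound site, and no HIF binding was measured here.

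The deposited values are relative log2 levels with a floor. Levels below are scaled reads, recovered from the steps in those values. A level of 30 is the floor, written here as under the floor, because smaller values had been raised to it before deposit. The scale of the levels rests on reading the floors of the table as 16 and 30, while differences between groups do not. Recovered reads per library ranged from 2567960 to 3867896, and the floor stood at 18 to 25 reads at day 0 and at 32 to 40 reads in P1. Fresh libraries had 7385 to 7405 gene models above that floor, and P1 libraries had 4455 to 4700. Differences were tested with limma in 1 fit of all 21 libraries over 7766 gene models, with Benjamini-Hochberg adjustment within each comparison, and a gene was called at an adjusted p under 0.05. The 5 comparisons with day 0 share the 3 day 0 libraries. The table's scaling bears on directions. Over the 3169 gene models detected in every library, the median log2 fold change against day 0 was -0.26 (day 3), -0.25 (day 7), -0.56 (day 14), -0.34 (day 21) and -0.33 (day 28). Of the calls against day 0, 14.4% to 22.1% were higher with the deposited scaling, 37.7% to 41.6% after scaling each library to its median gene model and 52.5% to 53.7% after quantile normalization. For P1 day 28 against P0 day 28 these shares were 12.6%, 52.3% and 49.2%.

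Gene symbols and values are out of step in most of this table, so the symbols were checked before the values were read. Along each chromosome, the gene models above the floor were set against the exons of the GENCODE M21 annotation (GRCm38), shifted by up to 1.6 Mb in either direction. A symbol was taken as supported where the best shift did not exceed 200 bases and the posterior of shifts within that limit was 0.9 or more. Of 16184 protein-coding genes, 523 met this, on chromosomes 4, 6, 7 and 9, and 83.2% of them were above the floor in some library, against 43.9% of the others. This difference is no support for the check, because detection above the floor was itself what the check used. All 3 genes passed, each with a best shift of -100 bases, and with posteriors of 0.9943 for Car9, 0.9992 for Hilpda and 1.0 for Car8. In the 41 genes centred on Car9, of which 32 were above the floor, the unshifted placement was 2.29 log10 units more likely than the best shift beyond 2 kb. The same lead was 5.71 units in the 41 genes centred on Hilpda and 11.42 units in the 36 genes around Car8. Beyond 2 kb, the placement of Car9 therefore rests on the smallest lead of the 3. Closer shifts were less clearly set apart. At a shift of 0.4 kb the log10 likelihood relative to no shift was -1.702 for Car9, -1.202 for Hilpda and -3.686 for Car8. For Car9 it was -1.868 at 1.0 kb and -3.384 at -1.0 kb. The neighbouring gene Tpm2 ends 982 bases from Car9, so shifts of about that size bear on the Car9 values.

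**Figure D1:**
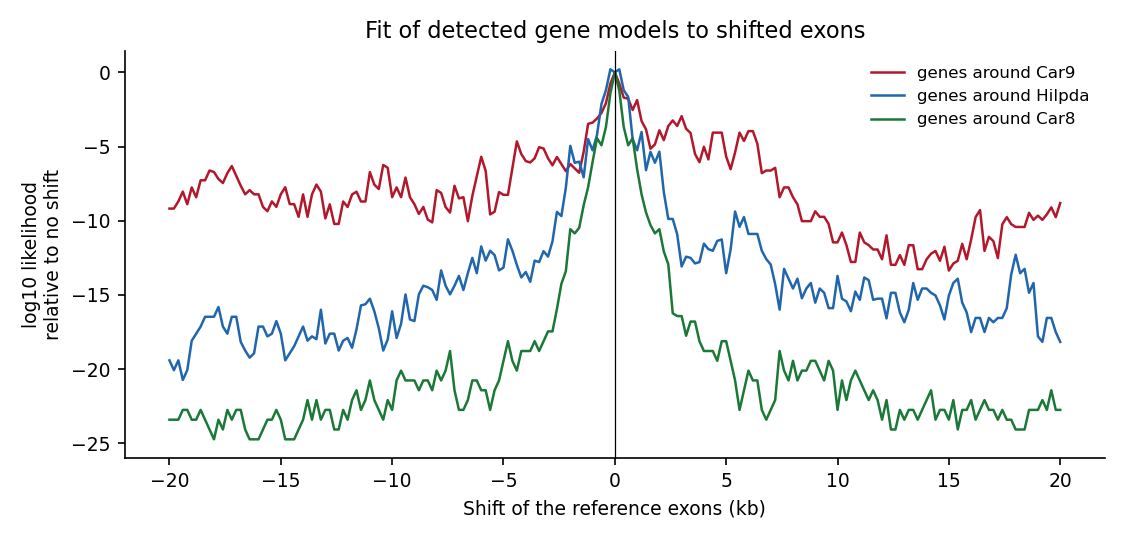
Log10 likelihood of the detected gene models around Car9, Hilpda and Car8 (vertical axis, relative to no shift) when the reference exons are shifted along the chromosome by the distance on the horizontal axis in kb. Each line is 1 gene's neighbourhood, and beyond 2 kb the lines stay at least 2.29 (Car9), 5.71 (Hilpda) and 11.42 (Car8) units under the value at no shift.

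Car9 (ENSMUSG00000028463) lies at chr4:43506966-43513729 on the plus strand, with 2304 exon bases. Hilpda (ENSMUSG00000043421) lies at chr6:29272488-29275446 on the plus strand, with 1103 exon bases and no other gene model over it. Car8 (ENSMUSG00000041261) lies at chr4:8143362-8239041 on the minus strand, with 3853 exon bases. A pseudogene and a miRNA gene lie inside Car8, neither of them on its exons. The exons of Car9 are overlapped by the antisense gene model Gm12454 on the minus strand. Strand was lost in the amplification, and so reads of Car9 and Gm12454 cannot be told apart where they overlap. All coordinates are those of the GRCm38 annotation, since no annotation of the GRCm39 build of the files was used here.

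The 3 genes followed different courses. Car9 was under the floor in fresh cells, was highest at days 3 and 7, stayed at a lower level to day 28 and was under the floor again after passage. Hilpda was highest in fresh cells and stood at 0.229 to 0.332 of that level, by the fit, on the later days of primary culture. Car8 was lower at day 3 than at day 0, varied widely between libraries at days 21 and 28 and was highest after passage. Per kb of exon, the scale on which genes can be compared, Hilpda led in fresh cells with 1811 ± 119 scaled reads per kb, Car8 had 295 ± 27 and Car9 was under its floor of 13.02 (mean ± SD, n = 3). In P1 cells Car8 led with 1130 ± 286 scaled reads per kb, Hilpda had 377 ± 37 and Car9 was again under 13.02. At day 3 the levels per kb were 546 ± 56 for Hilpda, 116 ± 23 for Car9 and 111 ± 14 for Car8.

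**Figure D2:**
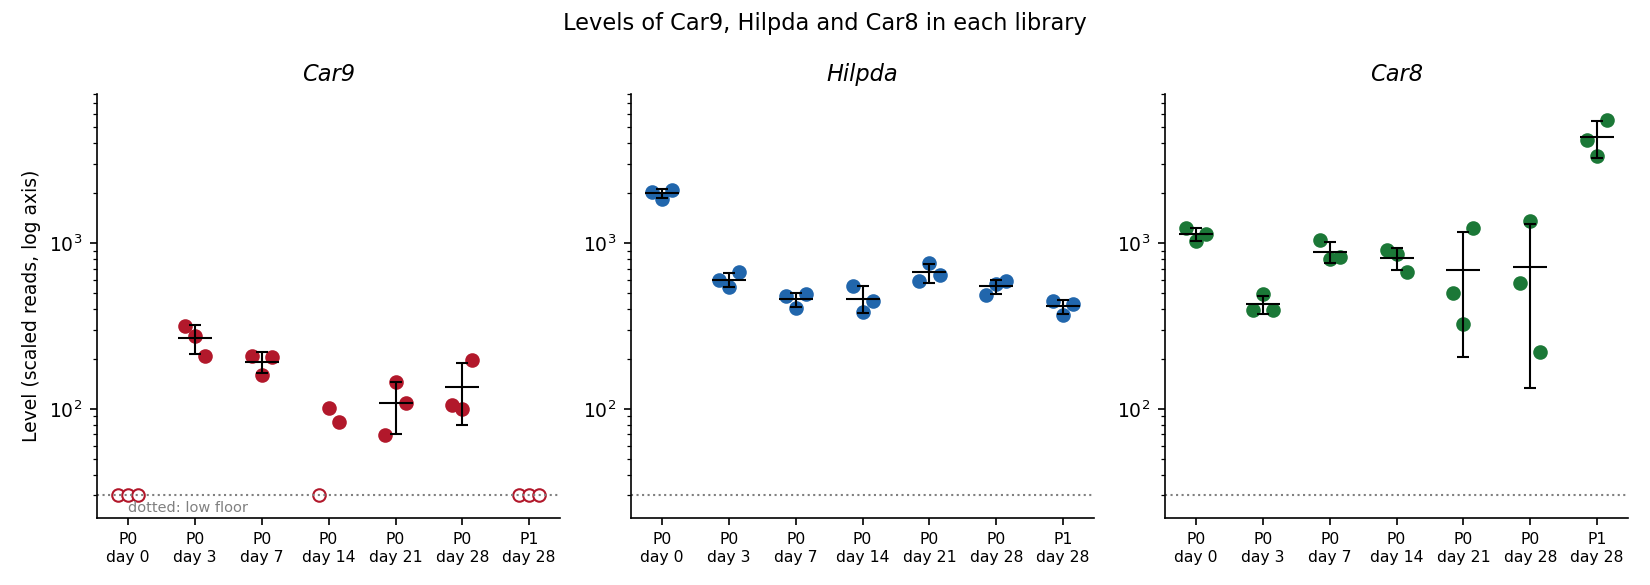
Level of Car9, Hilpda and Car8 in scaled reads (vertical axis, log scale) in the 3 libraries of each group. Points are libraries, open points are libraries under the floor at 30 (dotted line), and bars give mean ± SD where all 3 libraries were above it. All 3 Hilpda libraries at day 0 lie at or above 1850, all 3 Car8 libraries of P1 at or above 3355, and Car9 lies under the floor at day 0 and in P1.

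Car9, the active enzyme, was under the floor in all 3 fresh libraries, which allows no more than 18 to 25 reads in each. At day 3 its levels were 314, 276 and 209, from 305, 242 and 232 reads. At day 7 they were 209, 161 and 207. The day 3 and day 7 libraries were thus all clear of the floor, and their ranges met at 209. At day 14 the first library was under the floor and the others stood at 101 and 83.5. At day 21 the levels were 70.0, 145 and 109, and at day 28 they were 106, 99.9 and 198. From day 14 to day 28 the groups overlapped, and the third day 28 library lay within the day 7 range. In P1 all 3 libraries were under the floor, at 32 to 40 reads.

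The difference of Car9 from day 0 was known when the gene was chosen, so it is described and not tested. Against the floor of 30 at day 0, Car9 was at least 8.76-fold higher on day 3, at least 6.37-fold higher on day 7, at least 3.45-fold higher on day 21 and at least 4.27-fold higher on day 28. These folds are of geometric means, with the floor taken per library. At day 14 the fold over the floor was 2.11, which is no bound because a day 14 library was itself under the floor. The shares of all gene models called in those comparisons were 51.4% (day 3), 54.4% (day 7), 65.3% (day 14), 59.2% (day 21) and 60.3% (day 28).

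The later steps were tested. The SE of Car9 is pooled over all 7 groups. Its day 0 and P1 libraries stood at the floor, with an SD of 0 on the log2 scale, against 0.94 at day 14. The SE, p-values and intervals of Car9 may therefore be too narrow. Car9 did not pass between day 7 and day 3, with a log2 fold change of -0.46 ± 0.37 (SE, n = 3 each, limma adjusted p = 0.642, 95% interval -1.25 to 0.33), in a comparison that called 7.1% of gene models. At day 14 it fell by 1.59 ± 0.37 on the log2 scale against day 7 (limma adjusted p = 0.00449), with no overlap between the groups and 24.3% of gene models called. Without the first day 14 library the log2 fold change was -1.06 (limma adjusted p = 0.0198), and in a fit of the 2 groups alone the call was lost (limma adjusted p = 0.109). Day 21 against day 14 gave 0.71 ± 0.37 (limma adjusted p = 0.304), where 6.3% of gene models were called. Day 28 against day 21 gave 0.31 ± 0.37 (limma adjusted p = 1), where 0.103% were called, and without the third day 28 library it was -0.009 (limma adjusted p = 1). After passage Car9 was at least 4.27-fold lower than at P0 day 28, with a fitted log2 fold change of -2.09 ± 0.37 (limma adjusted p = 0.000867) in a comparison that called 14.7% of gene models. All 3 P1 libraries lay under all 3 P0 day 28 libraries. In order of mean level the groups ran from day 3 through days 7, 28, 21 and 14 to the groups under the floor, and the ranges of each neighbouring pair above the floor overlapped.

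Some of the genes beside Car9 on the chromosome had a like course. Tpm2, which encodes a tropomyosin of the contractile filaments, runs towards Car9 from the opposite strand and ends 982 bases from it. Its level was 21777, 21039 and 21395 at day 3, against 4715, 4481 and 6056 at day 0, and 3976, 4071 and 3823 in P1, against 13460, 10517 and 11042 at P0 day 28. Over the 21 libraries the log2 levels of Car9 and Tpm2 had a Pearson r of 0.84, those of Car9 and Tln1 0.89 at a distance of 17790 bases, and those of Car9 and Creb3 0.89 at 48603 bases. In the 14 libraries with Car9 above the floor, its level was 0.714% to 2.24% of that of Tpm2, with a median of 0.939%. In the other 7 libraries the floor itself was 0.228% to 0.785% of the Tpm2 level. Other genes within 60 kb were less alike, such as Ccdc107 with an r of 0.74, Tesk1 with 0.51, Gba2 with 0.36 and Cd72 with -0.09. Gm12454, the antisense gene model, was above the floor in all 21 libraries, between 31.7 and 116 scaled reads, and its r with Car9 was 0.52. The symbol check covered protein-coding genes only, so the symbol of Gm12454 was not itself checked. The part of these neighbours in the Car9 values was not tested.

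**Figure D3:**
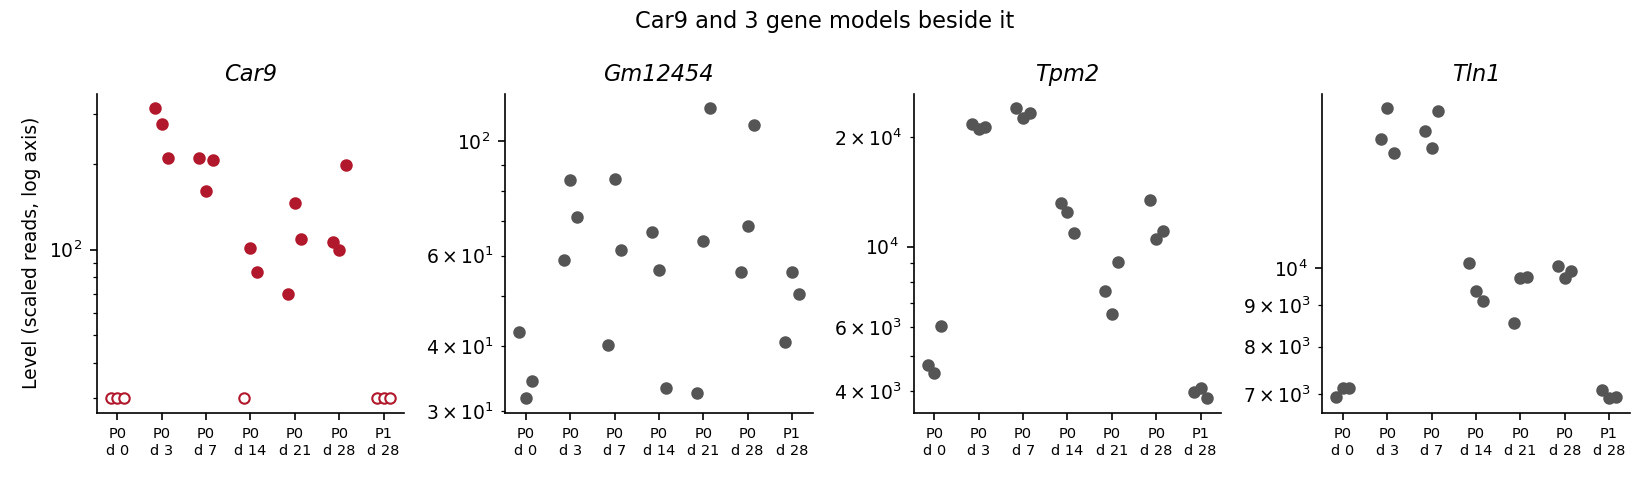
Level in scaled reads (vertical axes, log scale, a range of its own in each panel) of Car9, its antisense gene model Gm12454 and the neighbouring genes Tpm2 and Tln1 in the 3 libraries of each group. Points are libraries and open points are libraries under the floor. Tpm2 lies between 21039 and 24058 in all day 3 and day 7 libraries, and from 3823 to 4071 in P1.

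Cell cycle genes were also at higher levels at days 3 and 7. Of the 5 cell cycle genes listed, 3 had a supported symbol (Melk, Smc2, Ccne2), and their summed level was 3525 to 4042 at day 3 and 2789 to 3024 at day 7, against 806 to 1076 at day 0. In P1 the sum was 902 to 1021, against 509 to 998 at P0 day 28. Of the 6 mural cell markers, Tpm2 alone was supported, and its values stand above. In bulk RNA, fewer cells of a type and less RNA per cell cannot be told apart. The part of cell composition in the Car9 values was not tested.

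Car8, the relative without enzyme activity, had levels of 394, 491 and 397 at day 3, against 1237, 1030 and 1138 at day 0. All 3 day 3 libraries lay under the day 0 libraries. The gene fell by 1.41 ± 0.49 on the log2 scale (SE, n = 3 each, limma adjusted p = 0.0227). The call is a narrow one in the fit of all 7 groups. It was lost without day 0 replicate 1, day 0 replicate 3, day 3 replicate 1 or day 3 replicate 3, with limma adjusted p between 0.0533 and 0.0626. It was also lost after quantile normalization (log2 fold change -1.05, limma adjusted p = 0.1) and after scaling to the median gene model (-1.11, limma adjusted p = 0.0717). The call stayed without day 0 replicate 2 (limma adjusted p = 0.0423) or day 3 replicate 2 (limma adjusted p = 0.036). It also stayed in a fit of the 2 groups alone (limma adjusted p = 0.000482). The SE of Car8 is pooled over all 7 groups. The SD of its log2 levels was 0.98 at day 21 and 1.31 at day 28, against 0.13 at day 0 and 0.18 at day 3. The pooled SE may therefore be too wide for day 3 against day 0.

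From day 7 on, no Car8 comparison within primary culture passed. At day 7 the levels were 1041, 803 and 824, and at day 14 they were 906, 856 and 671. Against day 0, day 7 gave a log2 fold change of -0.36 ± 0.49 (limma adjusted p = 0.567) and day 14 gave -0.49 ± 0.49 (limma adjusted p = 0.392). The day 14 value turned to 0.12 after quantile normalization and 0.10 after median scaling. Day 7 against day 3 gave 1.06 ± 0.49 with no overlap between the groups (limma adjusted p = 0.275, 95% interval 0.005 to 2.11), while the fit of those 2 groups alone gave a limma adjusted p of 0.0281. Day 14 against day 7 gave -0.14 ± 0.49 (limma adjusted p = 0.946), and 0.14 after quantile normalization.

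The libraries of days 21 and 28 stood far apart in Car8. Levels at day 21 were 498, 326 and 1227, and at day 28 they were 572, 1364 and 221. The highest library was 3.76 times the lowest at day 21 and 6.17 times at day 28, against at most 1.65 times in each other group. The third day 21 library and the second day 28 library reached the day 0 range or passed it, and the others lay below it. The third libraries of day 21 and day 28 also had more gene models above the floor than their group mates (5633 and 5721), but Car8 was highest in one and lowest in the other. Day 21 against day 0 gave -0.95 ± 0.49 (limma adjusted p = 0.105) and day 28 against day 0 gave -1.02 ± 0.49 (limma adjusted p = 0.081). Without day 21 replicate 3 the first was -1.49 and passed (limma adjusted p = 0.014), and without day 28 replicate 2 the second was -1.67 and passed (limma adjusted p = 0.00364). Day 21 against day 14 gave -0.46 ± 0.49 (limma adjusted p = 0.683) and day 28 against day 21 gave -0.07 ± 0.49 (limma adjusted p = 1).

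After passage the Car8 levels were 4175, 3355 and 5537, against 572, 1364 and 221 at P0 day 28. Behind them were 5630, 4219 and 5908 reads in P1. Every P1 library was above every other library of the study, the next highest being the second of day 28. This difference was known when the gene was chosen and is not tested. The log2 fold change was 2.94 ± 0.49, a 7.66-fold higher geometric mean. Its size depended on the day 28 library left out, with 3.58 when replicate 2 was left out and 2.27 when replicate 3 was. Of the other groups, days 0, 7, 14, 28, 21 and 3 followed P1 in falling order of mean level, and the ranges of each neighbouring pair among them overlapped.

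Hilpda, the lipid droplet gene, had levels of 2043, 1850 and 2100 in the fresh libraries, from 1244, 1108 and 1719 reads. At day 3 they were 597, 544 and 667. At day 7 they were 477, 407 and 490. No later library came near the day 0 values, and the highest of them all was 762. Levels at day 14 were 554, 386 and 446, at day 21 they were 594, 762 and 639, and at day 28 they were 487, 568 and 588. In P1 the levels were 449, 371 and 427. These 18 later libraries span 371 to 762, and neighbouring groups in order of mean level (days 21, 3, 28, 14 and 7, then P1) overlapped in range.

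Hilpda fell in every comparison with day 0. The log2 fold change was -1.73 ± 0.14 at day 3 (SE, n = 3 each, limma adjusted p = 1.89e-08), or 0.301 of the day 0 level. It was -2.13 ± 0.14 both at day 7 (limma adjusted p = 1.18e-09) and at day 14 (limma adjusted p = 8.29e-10), or 0.229 of the day 0 level. At day 21 it was -1.59 ± 0.14 (limma adjusted p = 3.8e-08) and at day 28 -1.87 ± 0.14 (limma adjusted p = 4.72e-09). More than 50% of all gene models were called in each of these comparisons, with the shares given above, so a call alone does not set Hilpda apart. The changes were larger than the shift of the median gene model. After median scaling they were -1.43, -1.80, -1.54, -1.23 and -1.53 at days 3, 7, 14, 21 and 28, and each passed. Hilpda was chosen with earlier results of these data known, so its p-values are no independent support.

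Among the later steps, Hilpda passed once. It rose at day 21 against day 14 by 0.53 ± 0.14 on the log2 scale (limma adjusted p = 0.0318), with no overlap between the groups. That call was lost without day 14 replicate 2, day 14 replicate 3, day 21 replicate 2 or day 21 replicate 3 (limma adjusted p from 0.0722 to 0.168), and after quantile normalization (0.33, limma adjusted p = 0.162) and median scaling (0.31, limma adjusted p = 0.214). In a fit of the 2 groups alone it was lost as well (limma adjusted p = 0.262). Day 7 against day 3 gave -0.39 ± 0.14 (limma adjusted p = 0.116), without overlap of the groups. Day 14 against day 7 gave 0.00 ± 0.14 (limma adjusted p = 1, 95% interval -0.30 to 0.30). Day 28 against day 21 gave -0.28 ± 0.14 (limma adjusted p = 0.955), again without overlap. P1 day 28 against P0 day 28 gave -0.40 ± 0.14 (limma adjusted p = 0.0687, 95% interval -0.70 to -0.10), without overlap of the groups, and -0.07 after median scaling (limma adjusted p = 0.773).

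**Figure D4:**
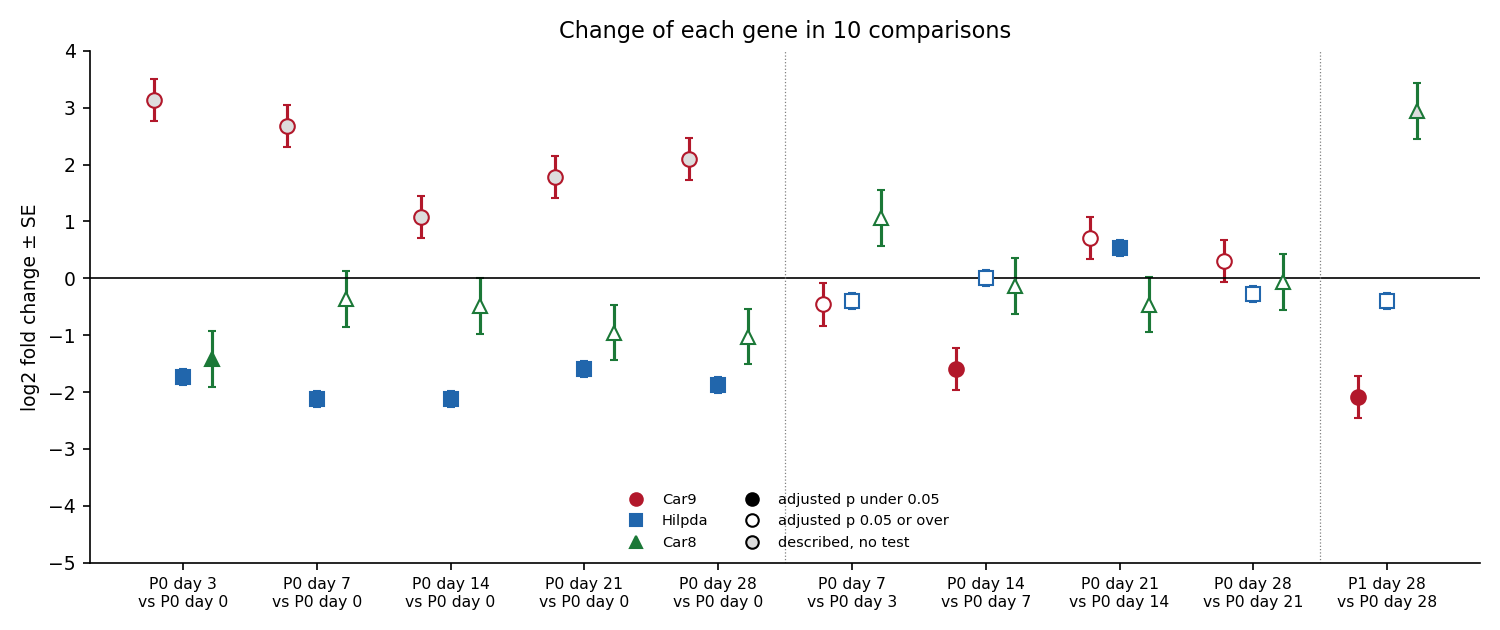
Log2 fold change ± SE from limma (vertical axis) of Car9, Hilpda and Car8 in 10 comparisons (horizontal axis), each the first named group over the second. Filled symbols had an adjusted p under 0.05, open symbols did not, and grey symbols are described without a test. Hilpda lies between -2.13 and -1.59 in the 5 comparisons with day 0, and in P1 against P0 day 28 Car8 lies at 2.94 and Car9 at -2.09.

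The adipocyte and epithelial markers that could be read, like Hilpda, had their highest levels in fresh cells. Of the 6 adipocyte markers, Lep and Aqp7 had a supported symbol, and their summed level was at most 62.6 in every later library, against 1638 to 1762 at day 0. Lep, which encodes leptin, was low even in fresh cells, with levels of 87.0, 36.7 and 47.7. Of the 9 epithelial markers, Esrp1, an epithelial splicing factor, was supported. Its level was 2023 to 2180 at day 3 and 787 to 1048 at day 7, against 2345 to 2715 at day 0. It was at most 88.0 in the day 14 and day 21 libraries, and no library of day 28 or P1 was above the floor. Of the 13 leukocyte markers, 4 were supported (Cd72, Lyn, Pax5, Sit1). Their sum was 1253 to 1409 at day 3 and 3151 to 3882 at day 28, against 2251 to 2572 at day 0. Lyn, a Src family kinase, made up most of it in every library, and Pax5 and Sit1 were under the floor in all 21 libraries. Of the 9 stromal markers, 3 were supported, and the sum of the pair with a recovered level, Col15a1 and Svep1, was 6908 to 8744 at day 28, against 406 to 677 at day 0. Endothelial and neural markers had no supported symbol. The part of these cell types in the Hilpda values was not tested.

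For each gene, the 3 genes most like it were taken from 411 other tested genes with a supported symbol by Pearson correlation of log2 levels over the 21 libraries. The points share libraries, depth and scaling, and the values are descriptions. Hilpda was most like Aqp3, a water and glycerol channel (r = 0.96), Klf4, a transcription factor (0.95), and Dnai1, a dynein chain of cilia (0.94). These were all high in fresh cells. Klf4, for one, had levels of 328, 385 and 493 at day 3, against 12454, 13426 and 14610 at day 0. Aqp3 was under the floor in all 18 later libraries, against 1417 to 1560 at day 0. Dnai1 was under the floor in every later library but day 21 replicate 3, at 40.3, against 755, 725 and 988 at day 0. Aqp3 and Dnai1 thus entered the test through their day 0 level. Their r with Hilpda is mostly a contrast of day 0 with the floor, and says little on the course after day 0.

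Car9 was most like Tln1, a talin that links integrins to the cytoskeleton (r = 0.89), Creb3, a transcription factor of the endoplasmic reticulum (0.89), and Pip4p2, a phosphoinositide phosphatase (0.88). Tln1 and Creb3 are also its neighbours on the chromosome. Of the 523 genes with a supported symbol, 284 lie on chromosome 4, and 36 of the 41 genes centred on Car9 are supported. Genes near Car9 were thus well represented among those compared. In 7 of the 21 libraries Car9 itself was under the floor. Car8 was most like Ctnnal1, a catenin-like protein (0.85), Hrct1 (0.75) and Peg10, an imprinted gene derived from a retrotransposon (0.64). Ctnnal1 had levels of 3146, 2081 and 3682 in P1, against 661, 1251 and 716 at P0 day 28. Within days 21 and 28 its highest libraries were the same ones as for Car8, with 1799 in day 21 replicate 3 and 1251 in day 28 replicate 2. Between the 3 genes themselves, r was -0.36 for Car9 with Hilpda, -0.70 for Car9 with Car8 and -0.10 for Hilpda with Car8. The 3 genes thus showed no shared course over the libraries.

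Few other genes of the pathway could be read, because their symbols were not supported. Of 82 listed HIF targets and pathway genes, a list that leaves out Car9 and Hilpda, 5 had a supported symbol (Pdk4, Cav1, Met, Rora and Car12) and 4 were tested. Rora, a nuclear receptor, was above the floor in fresh cells only, at 65.7, 36.7 and 44.0, so it entered the test through the group where it was high and is left out of the counts. Against day 0, 2 of the other 3 genes fell at day 3 and 3 of 3 at days 7, 14, 21 and 28, and none rose. The shares of all gene models called lower were 40.5%, 42.4%, 55.9%, 46.8% and 47.1% at these days. After quantile normalization or median scaling the calls were 2 lower (Pdk4, Cav1) and 1 higher (Met) at day 3, 2 lower at day 7 and 3 lower at days 14, 21 and 28. The median log2 fold change of the 3 genes with the deposited scaling was -1.50, -1.14, -2.05, -1.97 and -2.17 at these days, against -0.42, -0.44, -0.74, -0.54 and -0.54 for all tested gene models. In P1 against P0 day 28, 3 of 3 rose, in a comparison that called 1.85% of gene models higher and 12.9% lower, and their median was 1.33, against -0.22 for all tested gene models. All 3 were also called higher after quantile normalization and median scaling, where the calls over all gene models numbered 426 higher and 439 lower, and 410 higher and 374 lower. So few genes do not describe the pathway, and glycolytic targets such as Slc2a1 and Pgk1 were not among them. The 3 genes and the lists here and below were chosen with earlier results of these data known. Counts and p-values for any of them are therefore no independent support.

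Pdk4, a kinase that holds back pyruvate oxidation, had levels of 494, 453 and 392 at day 3, against 1969, 1827 and 1823 at day 0, and 1193, 1247 and 773 in P1, against 570, 459 and 273 at P0 day 28. It fell at day 3 by 2.07 ± 0.26 on the log2 scale (limma adjusted p = 3.58e-06) and rose in P1 by 1.34 ± 0.26 (limma adjusted p = 0.00181). Cav1, which encodes the coat protein of caveolae, had levels of 8550, 8723 and 8452 at day 3, against 24705, 24075 and 23796 at day 0. Its log2 fold change there was -1.50 ± 0.16 (limma adjusted p = 6.54e-07), and in P1 against P0 day 28 it was 1.16 ± 0.16 (limma adjusted p = 9.21e-05). Like Hilpda, these were highest in fresh cells. Unlike Hilpda, they were called higher after passage, although the difference between the genes was not tested. Met, the receptor of hepatocyte growth factor, did not pass at day 3 (0.37 ± 0.27, limma adjusted p = 0.265, and 0.68 with limma adjusted p = 0.0314 after median scaling) and fell by 2.85 ± 0.27 at day 28 (limma adjusted p = 8.81e-08).

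**Figure D5:**
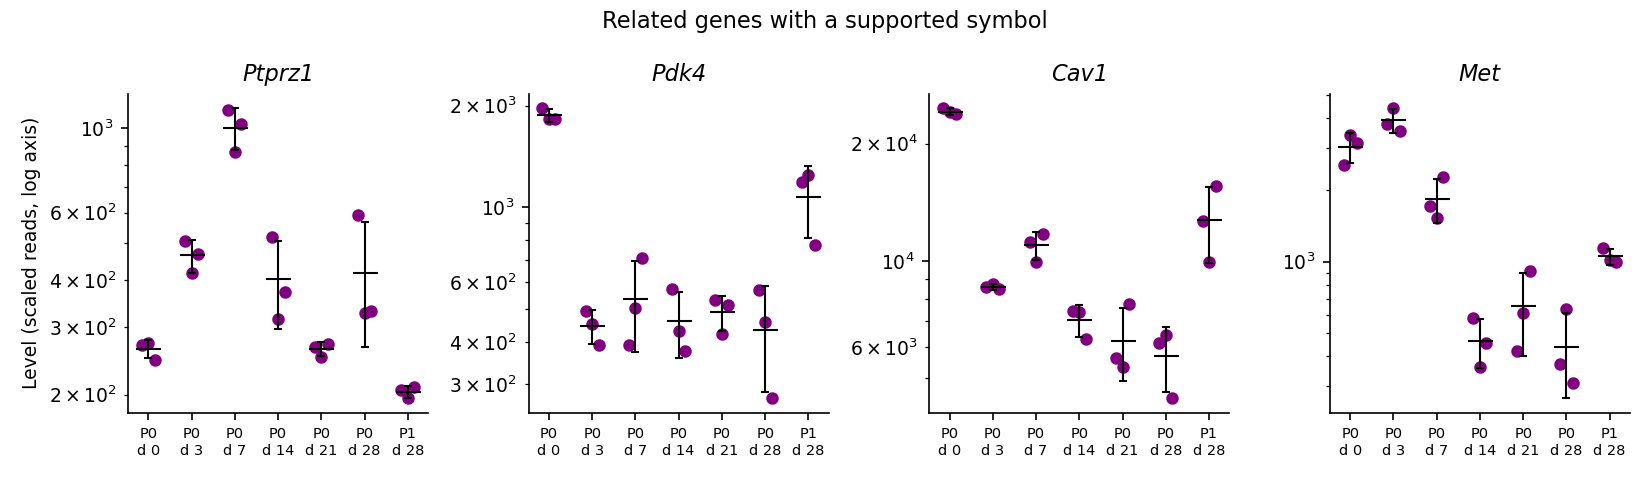
Level in scaled reads (vertical axes, log scale, a range of its own in each panel) of Ptprz1, a receptor phosphatase with a carbonic anhydrase-like domain, and of the HIF targets Pdk4, Cav1 and Met in the 3 libraries of each group. Points are libraries and bars give mean ± SD. Pdk4 and Cav1 are highest at day 0, Met at day 3 and Ptprz1 at day 7.

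In the carbonic anhydrase family, 4 of 18 genes had a supported symbol: Car9, Car8, Car12 and Ptprz1. Car12, another surface enzyme and HIF target, was under the floor in all 21 libraries. Ptprz1, a receptor tyrosine phosphatase whose outer domain resembles a carbonic anhydrase, was the remaining one tested. Its levels were 1114, 864 and 1029 at day 7, against 269, 274 and 247 at day 0, and the groups did not overlap. It rose by 1.92 ± 0.20 on the log2 scale (limma adjusted p = 3.78e-07). At day 14 it fell against day 7, by 1.34 ± 0.20 (limma adjusted p = 0.000126), and in P1 it had levels of 205, 196 and 210, against 592, 328 and 332 at P0 day 28 (-0.98 ± 0.20, limma adjusted p = 0.0028). After median scaling that last difference was -0.65 and did not pass (limma adjusted p = 0.0793). It was called higher than day 0 at days 3, 7, 14 and 28, where 10.8%, 12%, 9.37% and 13.2% of gene models were called higher, and it passed there after both other scalings too.

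The lists of lipid droplet and acid-handling genes gave 1 supported gene each. Of 23 lipid droplet genes, Aqp7, the glycerol channel of adipocytes, had levels of 30 or under in all 3 day 3 libraries, against 1675, 1601 and 1597 at day 0, at least 54.1-fold lower. No test is given, because the gene entered the fit through its day 0 level. It stayed at or near the floor in every later library, with 43.8 as its highest level. Of 8 acid regulators, Atp6v0d2, a subunit of the proton pump, had levels of 222, 301 and 277 in P1, against 1974, 1919 and 3414 at P0 day 28, and no day 0 library was above the floor. No symbol of the 9 listed inositol trisphosphate receptor and calcium release genes was supported, so the binding partners of the Car8 protein were not analysed here.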

How the data were processed

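RNA was sequenced from 21 libraries, 3 in each of 7 groups taken from the sample titles. Per the labels' protocols, 15 ng of total RNA, from either of 2 RNA kits, went into a cDNA amplification without strand marks, and no label ties a library to its RNA kit. The submitters' processing notes name GRCm39 as the build. Aligner, counter, gene annotation and scaling method were not given in the sources used here. Values are log2 as deposited by the authors, in which each gene model sums to 0 over the libraries, and low values stand at either of 2 floors. From the steps between these floors, 1 factor per library and the level of 30466 gene models were recovered, with 99.92% of 14602 values under 200 reads whole within 0.1 read. Reads under the floor are missing, so no count test was run and no counting interval is given. All per-sample columns were used. The recovery, the symbol check and limma were tested on simulated data.

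The design had named limma on log2 levels for values that are not counts, and limma 3.58.1 (R 4.3.3) with a variance trend was fitted to the recovered log2 levels with no pseudocount. Gene models above the floor in at least 3 libraries were tested. Other steps ran in Python 3.11.15 (numpy 2.4.6, pandas 2.3.3) and figures were drawn with matplotlib 3.10.9. Intervals of 95% use the 14 residual degrees of freedom. The 3 genes and the lists (HIF targets, carbonic anhydrases, lipid droplet genes, acid regulators, inositol trisphosphate receptors, markers of cell types and of the cell cycle) were chosen with earlier results of these data known. Named genes were these 3, the 3 most correlated with each, and list members with a supported symbol. Neighbours on the chromosome were added after the values were seen. The alternatives were a fit of the compared groups alone, 2 other scalings, no filter, a raised zero floor, a pseudocount of 30, no trend, a replicate block and leaving out each library.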

Additional observations from a re-analysis of the deposited data

How the results depend on the processing

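Each change of the 3 genes was recomputed under 8 other settings and without each library of the compared groups. Beside what the report states, the following moved. For Car9 against day 0, median scaling gave log2 fold changes of 3.44 (day 3) and 3.00 (day 7), and a pseudocount of 30 gave 2.29 (day 3), 1.88 (day 7), 1.17 (day 21) and 1.41 (day 28). With 2 groups alone in the fit, Car8 passed at day 14 against day 0 (-0.49, limma adjusted p = 0.0299) and at day 7 against day 3 (1.06, 0.0281), while Car9 at day 14 against day 7 (-1.59, 0.109) and Hilpda at day 21 against day 14 (0.53, 0.262) did not. Under quantile normalization and median scaling, Car8 at day 3 against day 0 (-1.05, -1.11) and Hilpda at day 21 against day 14 (0.33, 0.31) were not called. Car8 changed sign at day 14 against day 0 (0.12, 0.10) and against day 7 (0.14, 0.13).

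Gene models called numbered 151 (day 21 against day 14), 15 (day 28 against day 21) and 528 (P1 against P0 day 28) with the compared groups alone, and for day 28 against day 21 they numbered 14 after quantile normalization and 13 after median scaling. Main counts were 489, 8 and 1143. Leaving out 1 library gave 279 to 883, 8 to 17 and 748 to 1070, the 748 without P0 day 28 replicate 3. Over libraries left out one at a time, Car8 ranged from -1.52 to -1.35 at day 3 against day 0, -1.49 to -0.53 at day 21 against day 0, -1.67 to -0.36 at day 28 against day 0 and -0.72 to 0.60 at day 28 against day 21. Hilpda ranged from 0.41 to 0.67 at day 21 against day 14 and from -0.14 to 0.12 at day 14 against day 7. Car9 ranged from -0.009 to 0.55 at day 28 against day 21. The cause of these changes was not tested. With the replicate block, every call among the 3 genes stayed on its side of the threshold: Hilpda at day 3 against day 0 had -1.73 (limma adjusted p = 7.8e-08) and Car8 -1.41 (0.0336), and P1 day 28 against P0 day 28 called 1078 gene models. Same-numbered libraries correlated at -0.248 to 0.325 in their deviations from group means, with 7 of 30 pairs over 0.1. With 3 libraries per group, these values cannot tell whether same-numbered libraries share a mouse, a pool or a dish.

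The floor, at 18 to 40 reads, limits depth: how far Car9 lay under it was not detectable. The day 0 and P1 libraries of Car9 stood at the floor of 30, and none at the lower floor of 16.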
